A study of Mus musculus with 12 samples.

Results

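Ribosome biogenesis was followed through 50 named mouse genes for nucleolar and ribosome assembly factors in CD4 T cells from spleen. A gene was taken as a member where the gene name in the deposited files equals its symbol, and the files list 47 of the 50, out of 15125 loci. Ebna1bp2, Nop56 and Rrs1 are not listed under their own names and were left out. All 47 passed the filter on low values, which asked for 1 FPKM or more (fragments mapped to a transcript, scaled by its length and by all mapped fragments) in 3 or more of the 12 libraries. There were 4 groups of 3 libraries, named KI activated, KIKO activated, KI naive and KIKO naive. The labels give the genotypes only as KI and KIKO, without strain, age or the altered gene, and the series concerns T cells with a faulty proteasome. Activated cells had 16 h with Dynabeads against CD3 and CD28, and naive cells had none. Titles of the KIKO activated libraries say T cells without naming CD4.

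Ribosomes are made in the nucleolus, where RNA polymerase I transcribes the precursor of the ribosomal RNAs. Small nucleolar ribonucleoproteins (snoRNPs) guide the modification of that precursor, and a large set of assembly factors folds, cuts and packs it into a small and a large subunit. Resting T cells make few new ribosomes. A stimulated T cell enlarges its nucleoli and builds ribosomes before it divides, a program in which the transcription factor MYC has a known part.

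T cell markers were present in every library, and transcripts of other blood cells stood out in 2 of the 12. The T cell markers Cd3e, Cd3d, Cd3g, Cd4, Cd247, Cd5 and Lat, 7 listed of 8, summed to 1760 to 2001 FPKM in KI naive, 1383 to 1465 in KIKO naive, 1373 to 1603 in KI activated and 706 to 1077 in KIKO activated libraries. Of 6 B cell markers 2 were listed, with a sum of at most 2.78 in any library. The 6 listed of 7 myeloid markers summed to at most 7.70 in 10 libraries, to 211 in KIKO naive 2 and to 166 in KIKO activated 2, where the neutrophil genes S100a8 and S100a9 stood at 66.0 and 110 and at 45.4 and 92.8. Lyz2, a myeloid gene, stood at 26.1 and 22.2 in these libraries. Gzma, a granzyme of cytotoxic cells, stood at 8.01 and 7.57 and was absent, taken as 0, in the other 10. The part of these cells in the results was not tested, and counts without both libraries are given beside the main ones. Replicates correlated across loci with Pearson's r of 0.952 to 0.983. Depth and counting error are unknown, since the files hold FPKM alone. No label says that replicates are separate animals, so the p-values measure the spread between these samples, which may be technical.

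Stimulation was followed by higher levels of ribosome biogenesis genes in both genotypes. Over the members together the FPKM summed to 1284, 1279 and 1458 in the KI naive libraries and to 4208, 5142 and 5667 in the KI activated libraries. In KIKO cells the sum went from 1495, 1542 and 1540 to 2820, 3074 and 2281. The members thus held 0.395 to 0.408% of the summed level of all loci in KI naive, 1.16 to 1.49% in KI activated, 0.482 to 0.495% in KIKO naive and 0.697 to 0.901% in KIKO activated libraries. The 3 KIKO activated sums lay above all naive sums and below all KI activated sums. FPKM are shares of a library, so more RNA per cell and more cells of a kind cannot be told apart.

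**Figure D1:**
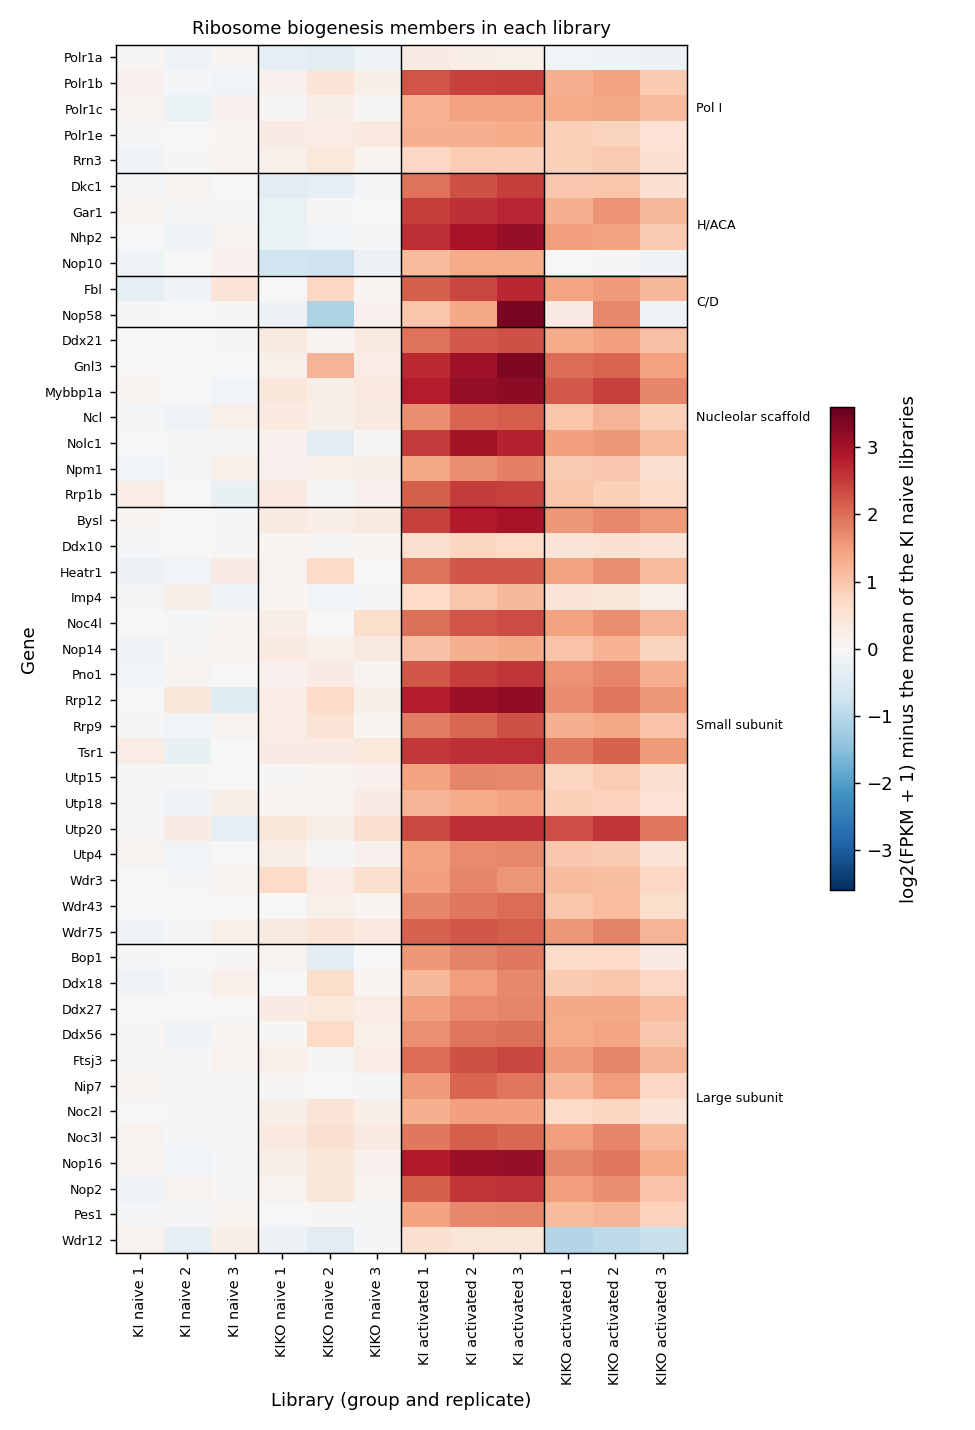
Each row is a member, ordered by role, and each column a library. Colour gives log2(FPKM + 1) minus the mean of the KI naive libraries, red for higher and blue for lower. The KI activated columns are the darkest red in most rows, the KIKO activated columns are paler, and Wdr12 at the bottom is blue in the KIKO activated libraries.

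In KI cells the question was which factors respond to stimulation, and all 47 members rose. Every member stood higher in all 3 KI activated libraries than in any KI naive library. Of all 9743 loci tested 61.7% were called, 32.2% higher and 29.5% lower, and 35.6% stood higher and 33.5% lower without overlap. The median log2 difference of the members was 1.98, which is 3.96-fold on the FPKM + 1 scale, against -0.01 over all loci. It ranged from 0.24 for Polr1a to 3.07 for Mybbp1a. Tests are limma's moderated tests on log2(FPKM + 1), two-sided, with Benjamini-Hochberg adjustment over all loci, and a gene is called where the adjusted p is under 0.05. Values after ± are SD over 3 libraries for FPKM and the standard error for log2 differences.

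In KIKO cells 44 members rose, 1 fell and 2 did not pass the test, Polr1a (0.14 ± 0.10) and Nop58 (1.01 ± 0.59). Of all loci 47.3% were called, 25.1% higher and 22.2% lower. For 44 members every KIKO activated library stood above every KIKO naive library, as for 29.3% of loci, and for 1 member below it, as for 26.6%. The median log2 difference was 1.01, or 2.01-fold, against 0.00 over all loci. Utp20 (1.86 ± 0.19) and Mybbp1a (1.82 ± 0.16) had the largest rises, and Wdr12 was the member that fell (-0.72 ± 0.14). Without the 2 libraries that held myeloid transcripts, 41 rose and 1 fell.

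**Figure D2:**
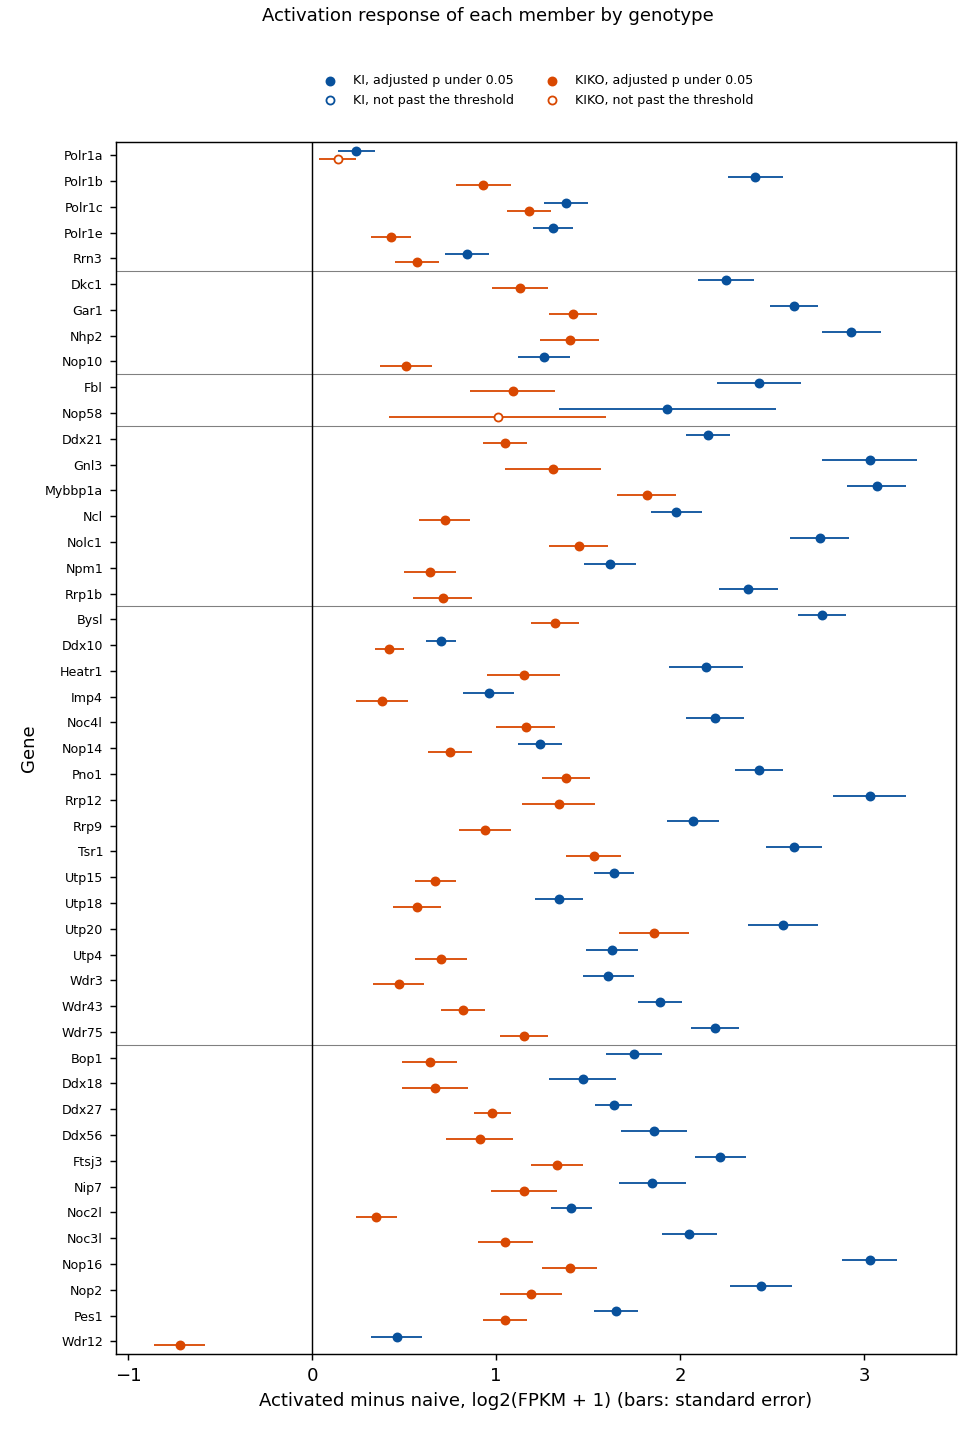
Points give the log2 difference between activated and naive libraries for each member, blue for KI and orange for KIKO, with bars for the standard error. Filled points passed limma's adjusted p of 0.05, and lines divide the roles in the order of the heat map. The KIKO point lies to the left of the KI point for every member.

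After stimulation the genotypes were compared directly, and 41 of 47 members were lower in KIKO cells, with none called higher. All 47 differences lay below 0. The median was -0.82 on the log2 scale, 1.77-fold lower, against 0.04 over all loci. Of all loci 40% were called, 19.3% lower and 20.7% higher. For 42 members every KIKO activated library stood below every KI activated library, which held for 26.0% of loci, and the reverse held for 0 members and 27.9% of loci. Without both libraries with myeloid transcripts 44 were lower, and leaving out any 1 library gave 38 to 43.

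The difference between the genotypes in the response itself was tested as an interaction, the KIKO response minus the KI response. It was called for 38 members, each below 0, against 20.6% of all loci called, 11.6% below 0 and 8.99% above. The median was -1.04, and all 47 values lay below 0. This comparison shares its libraries with those above and is no separate evidence. Without both libraries with myeloid transcripts 40 were called, and leaving out any 1 library gave 33 to 41.

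RNA polymerase I and its factor were split, with 3 of 5 members lower in activated KIKO cells. Polr1b, a subunit of the catalytic core, stood at 3.87, 3.17 and 3.09 FPKM in KI naive and 3.90, 5.10 and 4.08 in KIKO naive libraries, and at 19.8, 23.2 and 23.6 in KI activated and 9.57, 10.8 and 7.36 in KIKO activated libraries. KIKO libraries lay slightly above KI libraries at rest and far below them after stimulation, without overlap in either state. The naive difference did not pass (0.29 ± 0.15, limma adjusted p = 0.23). The activated difference was -1.19 ± 0.15 (limma adjusted p = 6.6e-05). Polr1e, a subunit particular to the enzyme, was at 15.0 ± 0.322 in KI activated and 9.76 ± 1.37 in KIKO activated cells (log2 difference -0.58 ± 0.11).

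Polr1c, a subunit shared with RNA polymerase III, behaved otherwise. It stood at 37.6, 43.3 and 43.2 in KI activated and 39.7, 41.9 and 34.9 in KIKO activated libraries, which overlap (log2 difference -0.09 ± 0.12, limma adjusted p = 0.59), from 12.8 to 16.9 in KI naive and 15.7 to 18.2 in KIKO naive libraries. With quantile normalization its difference was 0.01. Rrn3 encodes the initiation factor that brings the polymerase to the ribosomal gene promoter. It stood at 16.0, 18.1 and 17.9 in KI activated and 17.5, 18.6 and 13.9 in KIKO activated libraries (-0.06 ± 0.12, limma adjusted p = 0.72). It lay above 0, at 0.05, without KIKO activated 3. Both genes rose on stimulation in each genotype, Polr1c by 1.38 ± 0.12 and 1.18 ± 0.12 and Rrn3 by 0.84 ± 0.12 and 0.57 ± 0.12 in KI and KIKO cells.

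Polr1a, the largest subunit, moved least. It stood at 13.3, 11.6 and 13.9 in KI naive, 16.2, 15.4 and 14.9 in KI activated, 10.2, 9.52 and 11.4 in KIKO naive and 12.1, 11.5 and 10.9 in KIKO activated libraries. KIKO values lay below KI values in both states, called in activated cells (-0.40 ± 0.10, limma adjusted p = 0.0071). In naive cells the difference of -0.30 ± 0.10 did not pass, and it was -0.36 and passed with median-ratio scaling. The rise in KI cells (0.24 ± 0.10, limma adjusted p = 0.049) was lost without any KI library but KI naive 3, and without KIKO naive 1, KIKO activated 1 or KIKO activated 2, with values from 0.17 to 0.27 and the highest adjusted p, 0.19, without KI naive 2. It was also lost with quantile normalization (0.17), without the filter, without the trend in the variance and with only the KI groups fitted (0.24 each).

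The H/ACA snoRNP, which converts uridines of ribosomal RNA to pseudouridine and also holds telomerase RNA, was lower in activated KIKO cells in all 4 of its core proteins. Nhp2 (chr11:51510562-51514541, GRCm39, plus strand) stood at 20.6, 18.2 and 22.0 FPKM in KI naive and 16.8, 19.0 and 20.8 in KIKO naive libraries. It then stood at 133, 165 and 187 in KI activated and 59.4, 56.8 and 39.5 in KIKO activated libraries. The naive groups overlap and the activated groups lie apart, with the largest genotype difference of any member in activated cells (-1.63 ± 0.16, limma adjusted p = 1.5e-05). Dkc1, the pseudouridine synthase, stood at 90.0, 112 and 130 in KI activated and 45.0, 45.6 and 33.1 in KIKO activated libraries (-1.40 ± 0.15), from 22.3 ± 1.26 and 18.3 ± 2.39 in the naive groups. Gar1, which helps release the modified RNA, was at 33.7 ± 3.11 in KI activated and 13.6 ± 2.51 in KIKO activated cells (-1.26 ± 0.13). Its calls were lost where transcript ends alone set the level.

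Nop10, the smallest protein of the complex, was lower in KIKO cells in both states. It stood at 10.4, 11.5 and 13.0 in KI naive and 6.63, 6.56 and 9.83 in KIKO naive libraries, and at 26.6, 30.5 and 30.5 in KI activated and 11.8, 11.3 and 10.5 in KIKO activated libraries. The KIKO activated values thus lay within the range of KI naive values. The differences were -0.56 ± 0.14 in naive (limma adjusted p = 0.028) and -1.30 ± 0.14 in activated cells (limma adjusted p = 2.6e-05). The naive call was lost without KI naive 2, KI naive 3, KIKO naive 1 or KIKO naive 2, with differences of -0.56, -0.48, -0.48 and -0.47, and without the pair of libraries with myeloid transcripts (-0.47). The interaction (-0.75 ± 0.20) was lost without KI naive 1, KI activated 2 or KI activated 3, with values of -0.68, -0.71 and -0.72, and the rise in KIKO cells (0.51 ± 0.14) was 0.42 and lost without that pair.

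Of the C/D snoRNP, which methylates ribosomal RNA, 2 core proteins were listed. Fbl, the methyltransferase fibrillarin, stood at 32.2, 37.7 and 56.7 in KI naive, 40.8, 68.9 and 44.4 in KIKO naive, 187, 223 and 274 in KI activated and 111, 120 and 93.5 in KIKO activated libraries. Its activated groups did not overlap (-1.06 ± 0.23, limma adjusted p = 0.0031). Nop58 had the largest standard error of all members. It stood at 38.2, 49.1 and 209 in KI activated and 23.1, 63.9 and 16.4 in KIKO activated libraries, so that KI activated 3 and KIKO activated 2 stood apart from their groups. The difference did not pass (-1.31 ± 0.59, limma adjusted p = 0.099), and it passed without KI activated 1 (-1.77) or KIKO activated 2 (-1.86). Its rise in KI cells (1.93 ± 0.59) fell to 1.18 and did not pass without KI activated 3.

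Nucleolar scaffold and shuttling proteins were lower in activated KIKO cells in 7 of 7 members, and the interaction was called for all 7. Npm1, nucleophosmin, which gives the outer nucleolus its liquid form, was the most abundant member in every group. Its locus is chr11:33100527-33113076 (GRCm39, minus strand). It stood at 422, 430 and 516 FPKM in KI naive, 505, 511 and 530 in KIKO naive, 1187, 1443 and 1600 in KI activated and 865, 896 and 672 in KIKO activated libraries. The activated groups lay apart (-0.80 ± 0.14, limma adjusted p = 7.5e-04). Npm1 has processed pseudogenes that may share its reads, so its level is uncertain.

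Ncl, nucleolin, a histone chaperone and RNA-binding protein of the nucleolus, came next in abundance, with its locus at chr1:86278286-86287122 (minus strand). It stood at 155, 146 and 180 in KI naive, 204, 190 and 199 in KIKO naive, 514, 686 and 726 in KI activated and 320, 373 and 290 in KIKO activated libraries. KIKO cells thus stood above KI cells at rest and below them after stimulation, without overlap in either state. The activated difference passed (-0.96 ± 0.14, limma adjusted p = 2.1e-04), and the naive difference (0.31 ± 0.14) did not, though it did with quantile normalization (0.37). The response was 1.98 ± 0.14 in KI and 0.72 ± 0.14 in KIKO cells, with an interaction of -1.27 ± 0.20 (limma adjusted p = 0.0014).

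Gnl3, nucleostemin, a nucleolar GTPase of proliferating cells, had the largest interaction of all members (-1.72 ± 0.37, limma adjusted p = 0.0077). It stood at 11.0, 10.8 and 11.2 in KI naive and 75.8, 98.4 and 122 in KI activated libraries, and at 12.5, 27.0 and 13.5 in KIKO naive and 47.8, 50.5 and 32.0 in KIKO activated libraries. KIKO naive 2, a library with myeloid transcripts, stands apart in its group, and without it the interaction was -1.38. The activated groups did not overlap (-1.17 ± 0.26). Rrp1b, which joins the nucleolus to chromatin, was at 21.8 ± 3.15 in KI activated and 6.95 ± 0.831 in KIKO activated cells (-1.52 ± 0.16). Nolc1, which shuttles snoRNPs to the nucleolus, was at 169 ± 27.8 and 64.3 ± 9.58 (-1.38 ± 0.16). Mybbp1a, which binds the polymerase and p53, had the largest rise in KI cells, from 16.2 ± 0.916 to 145 ± 19.7, and reached 76.9 ± 18.7 in KIKO activated cells (-0.92 ± 0.16). Ddx21, an RNA helicase of early processing, was at 154 ± 19.4 in KI activated and 84.7 ± 11.8 in KIKO activated cells (-0.86 ± 0.12).

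**Figure D3:**
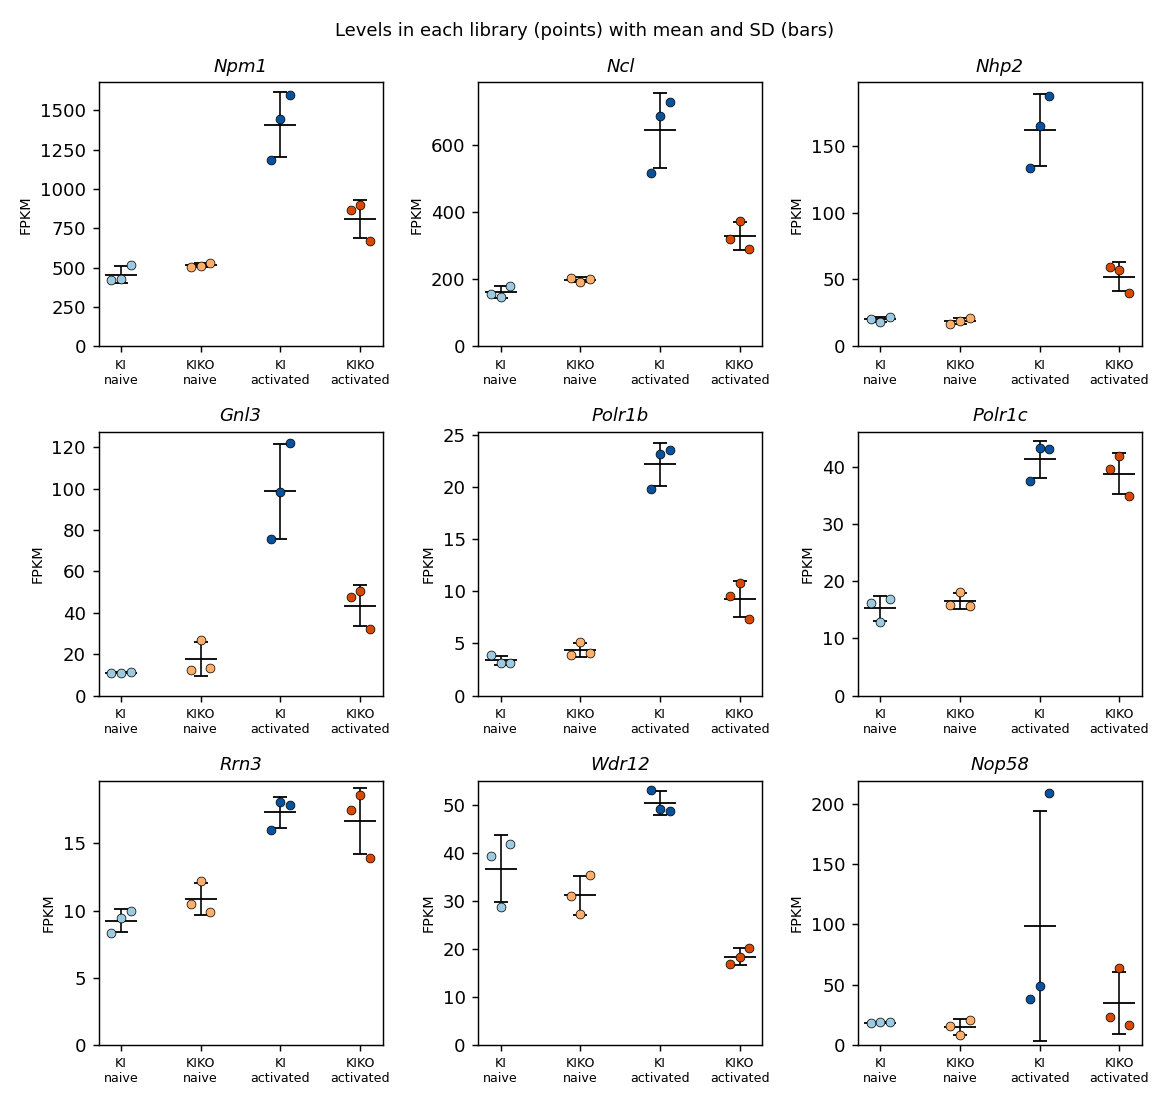
Points are libraries, horizontal marks the mean of 3 and vertical bars the SD, in FPKM on axes that start at 0. Npm1, Ncl, Nhp2, Gnl3 and Polr1b reach higher levels in KI than in KIKO activated libraries, Polr1c and Rrn3 overlap between the genotypes, Wdr12 is lowest in the KIKO activated libraries and Nop58 has a single KI activated library far above the rest.

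The small subunit processome and the factors that finish the small subunit make up 17 members. In activated cells 14 were lower in KIKO and 3 did not pass, and the interaction was called for 13. Rrp12, a nuclear export factor of preribosomes, stood at 2.59, 3.74 and 1.65 in KI naive and 24.3, 29.0 and 31.6 in KI activated libraries, and at 3.32, 4.70 and 3.09 in KIKO naive and 10.6, 12.6 and 9.43 in KIKO activated libraries. The naive groups overlap and the activated groups do not (-1.30 ± 0.20, limma adjusted p = 3.7e-04). Bysl, an assembly factor of the small subunit, was at 24.2 ± 4.45 in KI activated and 10.1 ± 0.867 in KIKO activated cells (-1.16 ± 0.13). Pno1, which helps place the cut at the end of the small ribosomal RNA, was at 56.4 ± 7.15 and 30.5 ± 4.97 (-0.87 ± 0.13). Heatr1, a processome protein needed for ribosomal RNA transcription, stood at 28.0, 34.8 and 34.5 in KI activated and 19.6, 23.0 and 15.7 in KIKO activated libraries (-0.72 ± 0.20, limma adjusted p = 0.011). Its interaction (-1.0 ± 0.28) did not pass without KI naive 1 or 2, KI activated 2 or 3, or KIKO activated 3, with values from -0.95 to -0.86.

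The 3 members of this role that did not pass in activated cells were Utp20, Nop14 and Ddx10. Utp20, a large scaffold of the processome, stood at 20.8, 25.2 and 25.0 in KI activated and 19.9, 23.8 and 14.5 in KIKO activated libraries (-0.29 ± 0.19, limma adjusted p = 0.25). Nop14, an early processome protein, was at 88.1 ± 10.0 and 76.2 ± 11.8 (-0.21 ± 0.12). Ddx10, a helicase of the processome, was at 48.6 ± 2.66 and 42.1 ± 1.61 (-0.20 ± 0.08, limma adjusted p = 0.057). Ddx10 passed without KI activated 1, and Nop14 and Ddx10 passed without the pair of libraries with myeloid transcripts, at -0.32 and -0.23. Ddx10 also passed with a pseudocount of 0.1, without the filter, with median-ratio scaling and with transcript ends alone. Its activated groups did not overlap. All 17 members rose in each genotype. The smallest rises in KIKO cells, of Imp4 (0.38 ± 0.14) and Wdr3 (0.47 ± 0.14), were 0.31 and 0.30 and not called without that pair. The rise of Wdr3 was also lost without KIKO naive 2, KIKO activated 1 or KIKO activated 2 (0.35, 0.39 and 0.43), and that of Imp4 without KI naive 1, KI activated 2, any KIKO naive library, KIKO activated 1 or KIKO activated 2, with values from 0.33 to 0.43.

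The remaining members of the role kept to a narrower band. Tsr1, a GTPase-like factor of late small subunit assembly, was at 49.2 ± 2.14 in KI activated and 29.0 ± 6.09 in KIKO activated cells. Rrp9, which binds the U3 snoRNA, was at 82.0 ± 12.8 and 44.7 ± 5.47, and Wdr43, a processome protein, at 102 ± 8.51 and 51.6 ± 8.83. The activated differences of Wdr43, Wdr75, Wdr3, Utp4, Utp15, Utp18, Noc4l, Imp4, Rrp9 and Tsr1 ran from -0.98 for Wdr43 to -0.60 for Utp18, and each of these 10 passed. Utp18 lost its call where transcript ends alone set the level.

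Large subunit assembly counted 12 listed members, and all 12 were lower in activated KIKO cells. Nop16, an early large subunit factor, stood at 7.53, 6.37 and 6.67 in KI naive, 8.08, 9.50 and 7.69 in KIKO naive, 55.2, 67.1 and 67.7 in KI activated and 25.4, 28.4 and 18.7 in KIKO activated libraries. Its KIKO values lay above KI values at rest and below them after stimulation, without overlap (activated difference -1.37 ± 0.15, limma adjusted p = 2.5e-05). The naive difference did not pass (0.26 ± 0.15, limma adjusted p = 0.28). Of the complex formed by Pes1, Bop1 and Wdr12, needed to process the large subunit RNA, Bop1 stood at 39.1, 46.0 and 49.5 in KI activated and 20.8, 21.1 and 15.8 in KIKO activated libraries (-1.18 ± 0.15). Pes1 was at 58.5 ± 6.84 and 38.7 ± 5.38 (-0.59 ± 0.12). Nop2, a methyltransferase of the large subunit RNA, was at 53.5 ± 9.24 and 25.8 ± 5.83 (-1.03 ± 0.17), and Noc2l, a chaperone of early particles, at 196 ± 15.6 and 115 ± 12.5 (-0.76 ± 0.11).

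Of the other large subunit members, Ftsj3, a methyltransferase of preribosomes, was at 87.5 ± 12.2 in KI activated and 53.0 ± 9.72 in KIKO activated cells (-0.72 ± 0.14). Noc3l, a partner of Noc2l, was at 23.2 ± 2.31 and 15.4 ± 3.45 (-0.58 ± 0.15). Nip7, a late-acting factor, stood at 18.8, 28.2 and 24.9 in KI activated and 14.8, 18.5 and 10.5 in KIKO activated libraries (-0.69 ± 0.18).

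The RNA helicases of large subunit assembly stayed at differences of -0.62 to -0.36. Ddx27 stood at 111, 130 and 135 in KI activated and 103, 104 and 86.5 in KIKO activated libraries (-0.36 ± 0.10, limma adjusted p = 0.012). Ddx18 (-0.58 ± 0.18) and Ddx56 (-0.62 ± 0.18) were lower too. Without KI activated 3 the differences of Ddx27, Ddx18 and Ddx56 were -0.30, -0.45 and -0.56 and none passed. Ddx18 and Ddx56 were also lost without KI activated 2 (-0.56 and -0.59) or KIKO activated 3 (-0.50 and -0.49), and Ddx18 and Ddx27 with quantile normalization (-0.41 and -0.16). Ddx27 was lost with transcript ends alone as well (-0.37). The interaction was called for 11 of the 12, all but Nip7 (-0.70 ± 0.26), which passed without KI activated 1 (-0.86) or KIKO activated 2 (-0.88). For Ddx18 (-0.80 ± 0.25) it was lost without KI naive 1 or 2, KI activated 2 or 3, KIKO naive 2, or KIKO activated 1 or 3, with values from -0.83 to -0.61. The Ddx18 interaction was also lost without the filter, with quantile normalization and without the trend in the variance. It was lost too without the pair of libraries with myeloid transcripts. The interactions of Ddx56 (-0.94 ± 0.25) and Pes1 (-0.60 ± 0.16) did not pass without KI naive 2, KI activated 2 or KI activated 3, and that of Pes1 also without KI naive 1, with values from -0.91 to -0.86 and from -0.58 to -0.54. The Pes1 interaction was also lost with quantile normalization, and that of Ddx27 with transcript ends alone. The rise of Noc2l in KIKO cells (0.35 ± 0.11) did not pass without KIKO naive 1 or 3 or KIKO activated 1 or 2, with values from 0.29 to 0.33.

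Wdr12 (chr1:60108944-60137804, GRCm39, minus strand) went its own way. Its level stood at 39.5, 28.8 and 42.0 in KI naive, 31.1, 27.3 and 35.4 in KIKO naive, 53.3, 49.2 and 48.8 in KI activated and 16.8, 18.3 and 20.2 in KIKO activated libraries. KIKO activated libraries thus lay below all others, and the fall in KIKO cells passed (-0.72 ± 0.14, limma adjusted p = 0.0011). The activated genotypes differed by -1.41 ± 0.14, and the rise in KI cells (0.46 ± 0.14) was lost without KI naive 2 (0.30). These levels are transcript ends. The summed starts of the locus were 2.95, 23.7 and 6.60 in KI naive and 15.1, 6.40 and 6.76 in KI activated libraries. For KIKO they were 4.93, 13.7 and 0.525 in naive and 14.7, 2.33 and 16.9 in activated libraries, with overlap throughout. With starts alone the activated difference was 0.01, the KIKO response 0.94 and the interaction 0.83, none past the threshold. Of 6 exon lengths at the locus 3 matched Wdr12 in GENCODE M21, and of 3 intron lengths 0 matched. Whether the fall belongs to full Wdr12 transcripts was not tested.

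Starts and ends disagreed for Nop58 as well. In KI activated 3 its starts summed to 209 and its ends to 11.3, while KI activated 1 and 2 had 38.2 and 49.1 against 36.4 and 42.0. In KIKO activated libraries the starts were 23.1, 63.9 and 16.4 and the ends 22.1, 15.4 and 15.6. By ends, therefore, the KIKO values lay close together, and KI activated 3 was lower than any of them. Other members also rested on 1 side. Heatr1, Polr1c and Wdr75 had no transcript ends in any library. Fbl, Wdr43 and Utp20 had ends of at most 0.561, 0.0954 and 0.341. Ends also lay well below starts for Gar1, Polr1a, Polr1e, Rrp1b and Rrp9. Nop16 had starts in KI activated 3 alone (13.2, with ends of 67.7), and its other levels are ends. The Fbl level of 56.7 in KI naive 3 was a single event, with starts of 27.9. Single events also set some levels of other members, among them Utp20. In KI naive 2 and 3 and KIKO naive 2 and 3 its levels were 4.12, 2.28, 3.90 and 5.19. Its starts there were 2.52, 1.57, 0 and 4.69. Rrp12 levels were ends in KI naive 1 and 2 and starts in KI naive 3. Its starts were 0.401, 1.19 and 1.65 and its ends 2.59, 3.74 and 0.

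**Figure D4:**
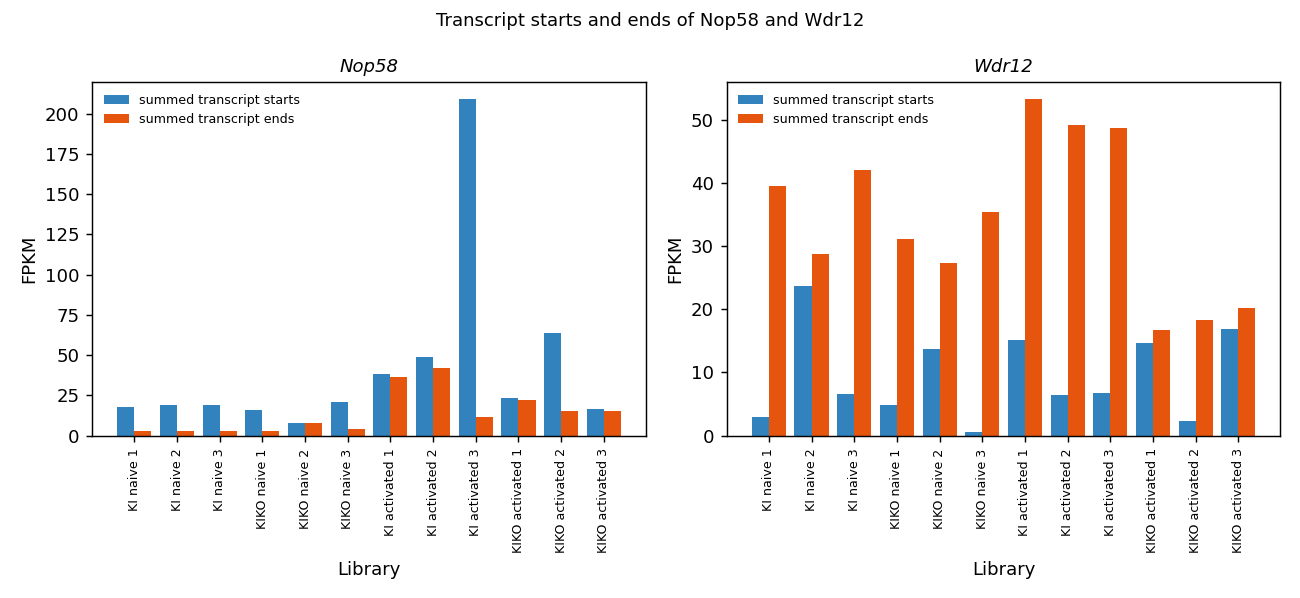
Bars give the summed FPKM of transcript starts (blue) and transcript ends (orange) in each library. Nop58 has 209 by starts and 11.3 by ends in KI activated 3, and Wdr12 has higher ends than starts in every library.

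In naive cells the question was whether the genotypes differ before stimulation. Wdr3 was higher and Nop10 lower in KIKO cells, and 45 members did not pass. Of all loci 10.4% were called, 6.46% higher and 3.90% lower. The members leaned upward, with 37 of 47 differences above 0, a median of 0.21 and 16 members without overlap on the higher side, against 56.0%, 0.05 and 19.6% over all loci. On the lower side 3 members stood without overlap, against 13.5% of loci. Wdr3 stood at 12.6, 12.2 and 13.7 in KI naive and 21.3, 15.6 and 19.7 in KIKO naive libraries (0.51 ± 0.14, limma adjusted p = 0.034). The call was lost without any 1 of KI naive 1 to 3 or KIKO naive 1 or 3, with values from 0.42 to 0.56, and with median-ratio scaling (0.44), transcript starts alone (0.32), no filter or only the naive groups fitted (0.51 each). Without both libraries with myeloid transcripts 1 member was higher and 0 lower. The 4 H/ACA proteins were all on the other side, from -0.56 for Nop10 to -0.06 for Gar1, and 16 of the 17 small subunit members lay above 0. The median stayed between 0.15 and 0.24 under every setting, but the calls did not: median-ratio scaling gave 0 higher and 2 lower, and quantile normalization 2 and 2. Over all loci the share of calls that were higher was 62.3%, with 44.2% and 49.4% under these scalings.

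**Figure D5:**
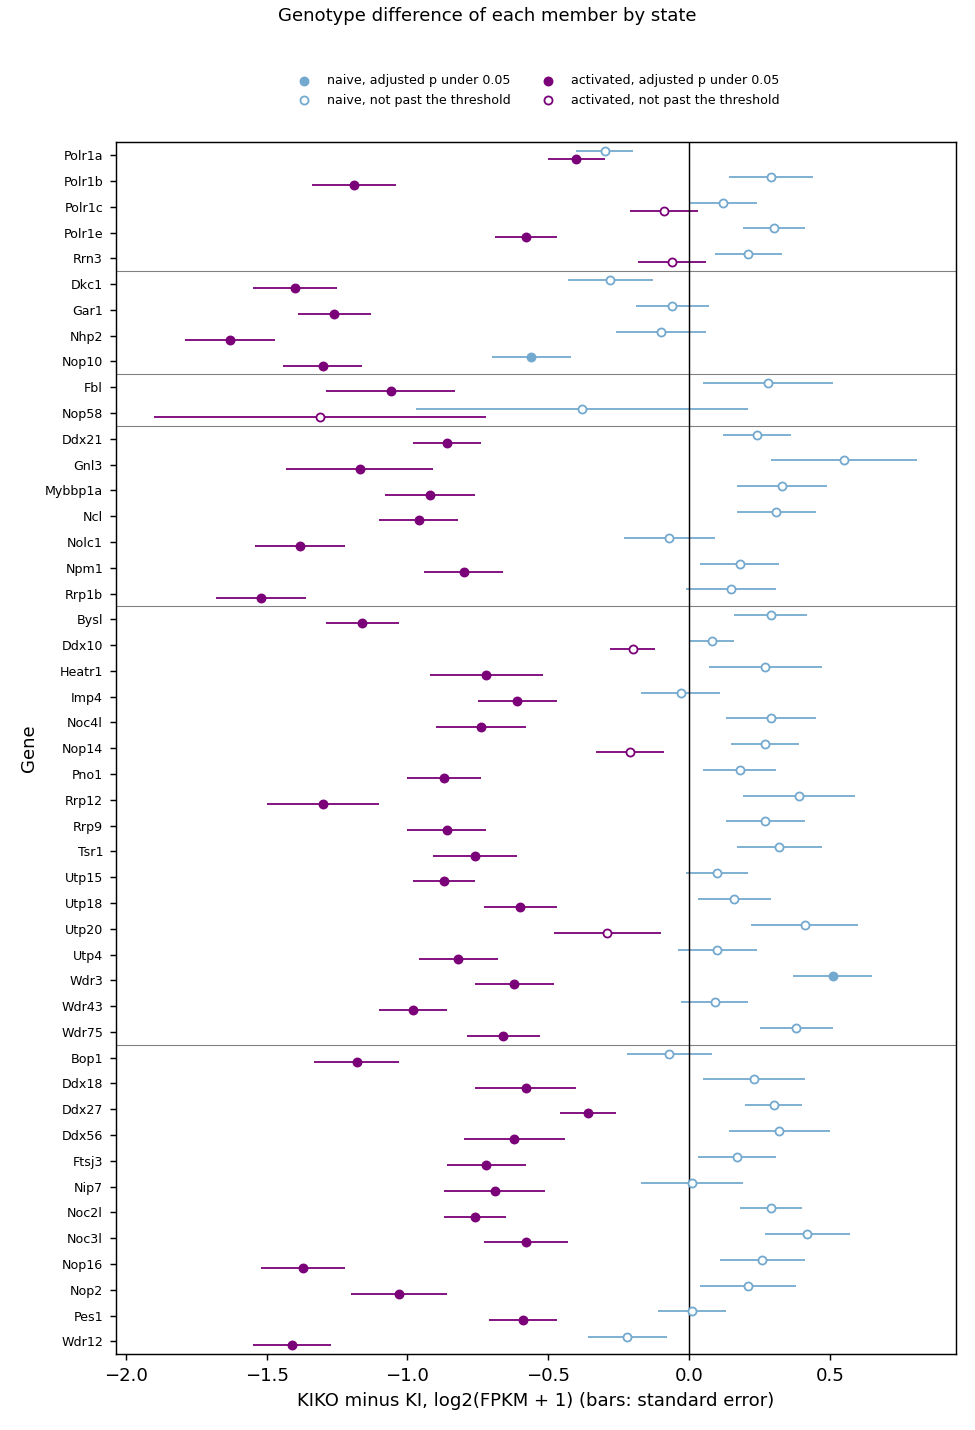
Points give the KIKO minus KI difference of log2(FPKM + 1) for each member, light blue in naive and purple in activated cells, with bars for the standard error. Filled points passed limma's adjusted p of 0.05. Most naive points lie slightly right of 0 and all activated points left of 0.

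The libraries of the activated groups were ordered alike across members. KI activated 1 was the lowest of its group for 45 of 47 members, and KIKO activated 3 for 45 of 47. Over all loci tested these libraries were lowest for 36.8% and 42.0%. KIKO activated 2 was the highest of its group for 37 members and KI activated 3 for 32, against 37.1% and 33.8% of loci. In naive groups KI naive 3 was the highest for 26 members and KIKO naive 2 for 20, against 41.7% and 37.5% of loci, and no library was lowest for more than 20 members. The members are thus not independent of each other within a library. Without KIKO activated 3 the median activated difference was -0.67, and without KI activated 1 it was -0.92.

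Other genes of the pathway mostly moved the same way. Of 116 further ribosome biogenesis genes 100 were listed and tested. In KI cells 86 rose and 3 fell on stimulation, and in KIKO cells 66 rose and 2 fell, with medians of 1.06 and 0.50. Over all loci these shares were 32.2% and 29.5% in KI and 25.1% and 22.2% in KIKO cells. In activated cells 53 were lower and 4 higher in KIKO (median -0.37), against 19.3% and 20.7% of loci. The interaction lay below 0 for 90 of the 100 and above 0 for 10, with 42 called below 0, against 11.6% of loci, and 0 called above. In naive cells 10 were called higher and 1 lower (median 0.13), which is near the 6.46% and 3.90% of all loci. These genes leaned upward as the members did, with 73 of 100 differences above 0, against 56.0% of all loci. Without overlap 31 stood higher and 6 lower, against 19.6% and 13.5% of loci.

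Several of these genes belong to the transcription of ribosomal DNA, and they did not all move alike. Ubtf, the factor that opens ribosomal genes for RNA polymerase I, stood at 49.8, 48.5 and 60.1 in KI naive and 37.4, 37.1 and 37.9 in KIKO naive libraries, and at 78.8, 87.7 and 93.9 in KI activated and 35.6, 34.0 and 34.3 in KIKO activated libraries. KIKO libraries lay below KI libraries in both states (-0.48 ± 0.10 and -1.30 ± 0.10, limma adjusted p = 0.01 and 2e-06). Tcof1, the nucleolar protein treacle, stood at 94.1, 94.4 and 102 in KI activated and 49.9, 51.9 and 51.2 in KIKO activated libraries, next to 47.4, 54.2 and 47.3 in KIKO naive libraries. Cd3eap, a subunit of RNA polymerase I, stood at 32.2, 41.7 and 44.1 in KI activated and 10.6, 12.2 and 10.9 in KIKO activated libraries (-1.71 ± 0.14). It overlaps Ercc1 on the other strand, and no source used here says whether the counting kept the strands apart. Of other genes of this function, Polr1d was lower in activated KIKO cells (-0.68 ± 0.22) and Taf1b higher (0.38 ± 0.11). Taf1a (0.12 ± 0.18), Taf1c (0.27 ± 0.12), Polr1f (-0.18 ± 0.08) and Polr1h (-0.22 ± 0.11) did not pass.

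Exosc6, a subunit of the RNA exosome that trims ribosomal RNA ends, went against the direction of most. It stood at 33.3, 36.1 and 38.6 in KI activated and 61.9, 82.7 and 42.2 in KIKO activated libraries (0.73 ± 0.18, limma adjusted p = 0.0067). Ngdn, a processome protein, was higher in KIKO cells in both states, at 46.9, 51.1 and 46.2 against 69.7, 66.5 and 61.1 after stimulation (0.44 ± 0.09). Sbds and Taf1b were the other 2 genes higher in activated KIKO cells, by 0.31 ± 0.11 and 0.38 ± 0.11. Rrp15, a large subunit factor, had the smallest p of the list for the rise in KI cells, from 6.11, 6.23 and 6.31 to 66.3, 83.4 and 91.0.

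Since the members moved together, their promoters were searched for CACGTG, the E-box that MYC with MAX and other factors bind and which reads the same on both strands. Of 43 listed members with a promoter in the RefSeq table (GRCm38.p6), 4 held it in the 250 bases before a transcript start, 9.3%, against 10.5% of 7348 tested genes and 6.9% of all 27025 genes of the table. The share among members was thus no higher than among tested genes. The sites are shown so that the letters around each can be compared, 5′ to 3′ on the gene's strand, with the E-box in capitals. They lie at chr1:34439684-34439737 (Imp4, plus strand), chr6:125131799-125131852 (Nop2, plus strand), chr11:93885767-93885810 (Utp18, minus strand), chr16:13780460-13780513 and chr16:13780627-13780680 (Rrn3, plus strand).
Imp4: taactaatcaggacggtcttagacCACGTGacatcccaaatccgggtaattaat
Nop2: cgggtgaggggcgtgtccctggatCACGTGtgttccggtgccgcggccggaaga
Utp18: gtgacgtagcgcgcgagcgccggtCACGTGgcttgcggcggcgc
Rrn3, upstream site: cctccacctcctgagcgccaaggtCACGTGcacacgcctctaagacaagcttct
Rrn3, site near the start: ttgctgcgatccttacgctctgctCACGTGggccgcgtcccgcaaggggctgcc
The first base of the E-box lies 121 bases before the start in Imp4, 60 in Nop2, 20 in Utp18, and 215 and 48 in Rrn3. The activated difference of these 4 genes ran from -1.03 for Nop2 to -0.06 for Rrn3. A match is a description of the sequence, and sites outside these windows were not searched.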

How the data were processed

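Poly(A) RNA from 12 samples of splenic mouse CD4 T cells was sequenced. Input was 15 ng of total RNA, and libraries were made with a TaKaRa SmartSeq kit, per the labels' protocols. Reads went through FastQC 0.11.9, cutadapt 2.9 and HISAT2 2.2.0, per the submitters' processing notes, which name GRCm39 and mm10. FPKM came from a program not given in the sources used here. Deposited values are FPKM of transcript events (starts, ends, exons, introns), per the file headers, and events at 0 are not listed. Gapdh was listed in every activated library and in no naive library, so absence may not always mean a level of 0. All 47 members were listed in every library. The effect of absent loci on the shares over all loci was not tested.

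Repeated lines of an event, equal in value, were dropped. The level of a locus is the largest of its summed starts, its summed ends and its largest single event, with 0 where absent. limma 3.58.1 in R 4.3.3 fitted 4 group means to log2(FPKM + 1) of 9743 loci with a trend in the variance (4 prior degrees of freedom). The script was tested on simulated data. The 5 comparisons were adjusted separately. At least 1 exon or intron length matched the gene in GENCODE M21 for 40 of 47 members, not every length in each, and 7 gave none to compare. Coordinates of the promoters are GRCm38.p6. Python 3.11.15 made tables and figures.

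Members, roles and lists were chosen with earlier results of these data known. Values are given for the 6 called members with the largest change in each comparison and those called against the direction of most. The same holds for Polr1a, Rrn3, Dkc1, Fbl, Ncl, Npm1, Bop1 and Heatr1, and for other members by role. Pathway genes were up to 4 per comparison by smallest p or direction, and others of ribosomal DNA transcription. Marker lists for CD8 T, NK and erythroid cells were also run. Cd8a and Cd8b1 summed to 6.51 to 16.1 FPKM, 4 NK genes to 0.42 to 21.1 and 3 erythroid genes to at most 2.35. Alternatives were the pseudocount, the filter, scaling, the level, the variance model, the groups fitted, a replicate block and leaving out each library.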

Additional observations from a re-analysis of the deposited data

Results flagged for a closer look

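The response to stimulation differed between the genotypes for 38 members by limma's interaction test, each smaller in KIKO cells, and the values are the KIKO response minus the KI response in log2(FPKM + 1). In RNA polymerase I these were Polr1b at -1.48 and Polr1e at -0.88. Among H/ACA proteins Nhp2 was at -1.53, Gar1 at -1.19, Dkc1 at -1.12 and Nop10 at -0.75, and of the C/D proteins Fbl was at -1.34. Among nucleolar scaffold proteins Gnl3 was at -1.72, Rrp1b at -1.66, Nolc1 at -1.31, Ncl at -1.27, Mybbp1a at -1.25, Ddx21 at -1.10 and Npm1 at -0.98.

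In small subunit assembly Rrp12 was at -1.69, Bysl at -1.45, Wdr3 at -1.14, Rrp9 at -1.13, Tsr1 at -1.08, Wdr43 at -1.07 and Pno1 at -1.05. Wdr75 followed at -1.04, Noc4l at -1.03, Heatr1 at -1.0, Utp15 at -0.98, Utp4 at -0.93 and Utp18 at -0.76. In large subunit assembly Nop16 was at -1.63, Nop2 at -1.24, Wdr12 at -1.19, Bop1 at -1.11, Noc2l at -1.05 and Noc3l at -1.0. Ddx56 was at -0.94, Ftsj3 at -0.89, Ddx18 at -0.80, Ddx27 at -0.66 and Pes1 at -0.60. Wdr12 is the member in this group that rose in KI and fell in KIKO cells.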

How the results depend on the processing

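The counts of members lower in activated KIKO cells, of interactions and of rises in KI and KIKO cells stayed within 1.5 times of those given, and the medians kept their sign, under every setting. Some members had starts or ends too low for the filter and were not tested where only these set the level. Under every setting that tested them, 35 of the 41 members lower in activated KIKO cells were called. So were 29 of the 38 interactions, 43 of the 47 rises in KI cells and 39 of the 45 calls in KIKO cells. The lowest counts under any setting were 31 lower members, 29 interactions, 36 rises in KI and 35 in KIKO cells. The median response in KI cells was 1.77 with quantile normalization, and with transcript starts only 0 members fell in KIKO cells, since Wdr12 then stood at 0.94. With starts only Wdr12 was at 0.01 in the activated comparison and 0.83 in the interaction. With quantile normalization Polr1c was at 0.01 between activated genotypes and Tcof1 at -0.02 on stimulation of KIKO cells, and without KIKO activated 3 Rrn3 and Mphosph6 were at 0.05 between activated genotypes. With 1 library left out Rrn3 ranged from -0.14 to 0.05 and Mphosph6 from -0.17 to 0.05.

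In naive cells the counts of 1 higher and 1 lower became 0 higher without the filter or with the replicate block, 0 higher and 2 lower with median-ratio scaling, 2 and 2 with quantile normalization, 0 lower with only the groups compared and 0 lower without both libraries with myeloid transcripts, chosen after seeing the data. Wdr3 was not called with only the groups compared or with transcript starts only, where the 1 member called higher was another. Leaving out 1 library gave 0 to 5 higher, the 5 without KIKO activated 3, and 0 to 1 lower. Elsewhere it gave 38 to 43 lower between activated genotypes, 45 to 47 rises in KI, 41 to 44 in KIKO cells and 33 to 41 interactions. The causes were not tested.

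The titles share replicate numbers. Over all pairs of groups, same-numbered libraries correlated in their deviations at -0.036 to 0.121. In 15 of 36 cases a library correlated best with its own number. Between KI naive and KI activated, same-numbered libraries stood at 0.055, 0.079 and 0.102, and the others at -0.072 to 0.002. Between KIKO naive and KIKO activated these were -0.004, 0.094 and 0.035, and -0.073 to 0.066. Both libraries with myeloid transcripts carry the number 2. Whether naive and activated libraries of 1 number share a source was not tested. The replicate block took a number as shared by all 4 groups. With the replicate block 41 members were lower in activated KIKO cells and 38 interactions were called, as without it, and 46 rose in KI and 43 in KIKO cells, with the calls of Polr1a (0.24) and Imp4 (0.38) lost. Wdr3 in naive cells (0.51) was lost too.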
